A study of Mus musculus with 12 samples.

Results

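The genes described here encode the nuclear subunits of the mitochondrial respiratory chain and the ATP synthase, with cytochrome c and the complex I assembly factors that carry an Nduf name. Members were all genes whose symbol in the array annotation begins with Nduf, Uqcr, Atp5, Cox4, Cox5, Cox6, Cox7 or Cox8, together with Sdha, Sdhb, Sdhc, Sdhd, Cyc1 and Cycs. The rule used names and no measured value, and found 92 of the 18193 genes named on the array. Each gene was read from its probe set with the highest mean over 12 arrays and tested if that probe set had a log2 value above 5 in 3 or more of the arrays, which left 82 members among 9120 tested genes. Those 82 lay above 5 in all 12 arrays, so no tested member owed its place to 1 group.

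RNA came from flow-sorted CD11b+ cells of the hippocampus of female mice, and CD11b is a surface integrin carried by microglia and by other myeloid cells. The 4 groups were C57BL/6 sham, C57BL/6 irradiated, Balb/c sham and Balb/c irradiated, with 3 mice and 3 arrays each. Irradiated mice received 1 dose of 10 Gy of X-rays over the forebrain at 6.5 weeks of age, sham mice received none, and all were analysed 1 month later at 10.5 weeks. The comparisons ask whether transcripts of the energy machinery of these cells differed after irradiation, and whether they differed between the strains.

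Complex I (NADH dehydrogenase), complex II (succinate dehydrogenase) and complex III (cytochrome bc1) pass electrons from nutrients to cytochrome c, and complex IV (cytochrome c oxidase) hands them to oxygen. Complexes I, III and IV pump protons across the inner mitochondrial membrane, and complex V (ATP synthase) uses their return to make ATP. Most subunits are encoded in the nucleus and a few in the mitochondrial genome, and microglia draw on both this pathway and glycolysis, with a known tilt toward glycolysis when they are activated.

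Of 16 microglial marker genes 15 were on the array and all 15 were tested, among them P2ry12, Tmem119 and Cx3cr1, whose lowest values in any array were 13.76, 13.84 and 13.79 (log2). The log2 of the summed linear level of the 15 lay between 17.59 and 17.75 in all arrays. Some single markers ranged more widely, Slc2a5 from 6.61 to 10.17, Fcrls from 12.89 to 14.62 and Trem2 from 10.15 to 11.88. By limma at an adjusted p under 0.05, 1 of the 15 was called lower after irradiation in Balb/c (background 6.15% called) and 0 higher. Between sham strains 3 were called lower in Balb/c (background 5.24%) and 0 higher. Markers of other cells were present as well and differed between groups. All 12 astrocyte markers were tested, and their summed level was 14.34 to 14.68 in C57BL/6 sham, 14.86 to 15.64 in C57BL/6 irradiated, 14.29 to 14.71 in Balb/c sham and 15.13 to 15.80 in Balb/c irradiated arrays. For the 9 monocyte markers on the array, of which Vcan was never above 5, these ranges were 13 to 13.91, 14.28 to 14.73, 13.63 to 13.79 and 14.12 to 14.45. For the 10 endothelial and pericyte markers on the array they were 12.27 to 12.51, 12.60 to 13.05, 12.28 to 13.23 and 13.60 to 13.95, with Pecam1 and Cdh5 never above 5. The 10 border-associated macrophage markers stood at 13.68 to 14.65, 14.55 to 14.84, 13.37 to 13.50 and 13.84 to 14.24, with Siglec1 never above 5. The 6 neutrophil markers on the array stood at 8.81 to 11.18 in C57BL/6 sham, 8.87 to 11.28 in C57BL/6 irradiated, 6.70 to 7.28 in Balb/c sham and 9.73 to 11.78 in Balb/c irradiated arrays, with Mmp8 never above 5. Oligodendrocyte markers lay between 15.19 and 16.07 in all arrays, with Olig2 and Sox10 never above 5, and neuronal markers between 10.01 and 11.46. Of the 12 neuronal markers, Tubb3, Slc17a7, Syn1 and Nrgn were never above 5. Of the 7 T and NK cell markers on the array, Cd3e, Cd3d, Cd3g, Cd8a, Cd4 and Nkg7 were never above 5, while Gzma, the only one tested, reached 8.56. Their summed level was 6.02 to 7.24 in C57BL/6 sham, 7.78 to 8.67 in C57BL/6 irradiated, 5.07 to 5.11 in Balb/c sham and 5.10 to 8.31 in Balb/c irradiated arrays. The 3 erythroid markers on the array (Hba-a1, Alas2 and Slc4a1) were never above 5. By limma, 5 of 8 tested monocyte and 1 of 12 astrocyte markers were called higher after irradiation in C57BL/6. In Balb/c 3 of 8 monocyte, 5 of 12 astrocyte and 3 of 8 endothelial and pericyte markers were. So were 3 of 9 border-associated macrophage and 2 of 4 neutrophil markers in Balb/c. Of all 9120 genes, 202 were called higher in C57BL/6 and 297 in Balb/c. The 3' excess, the log2 signal of the 3' minus the 5' control probe sets for Actb and Gapdh, grows as RNA products shorten. Its mean ± SD (n = 3) was 3.64 ± 0.13 in C57BL/6 sham, 3.63 ± 0.12 in C57BL/6 irradiated, 3.69 ± 0.14 in Balb/c sham and 4.25 ± 0.56 in irradiated Balb/c arrays, and replicate 2 of the last group reached 4.82. The log2 signal of the 18S ribosomal RNA control was lower in every irradiated than in every sham array of its strain, at 12.05 to 12.31 in sham and 11.55 to 11.77 in irradiated C57BL/6 arrays and at 11.93 to 12.32 and 10.48 to 11.60 in Balb/c. The part of other cells and of RNA quality in the results below was not tested, except where a value with a covariate or without an array is given. In such bulk samples, fewer cells of a type and less RNA per cell cannot be told apart.

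The CD11b+ cells carried transcripts for all 5 complexes. Tested members numbered 6 of 6 for the complex I core, which binds the flavin and the iron-sulfur clusters, 26 of 28 for its accessory subunits, 8 of 8 for its assembly factors, 4 of 4 for complex II, 9 of 9 for complex III, 1 of 1 for cytochrome c, 11 of 19 for complex IV and 17 of 17 for complex V. Ndufa4, named for complex I but built into complex IV, and its paralog Ndufa4l2 were counted with complex IV. Mean log2 values of the tested probe sets ran from 6.12 for Ndufaf5 to 14.20 for Cox6a1, which orders probe sets and not transcripts. The lowest members inside the filter were the assembly factors Ndufaf5, Ndufaf3 (6.63) and Ndufaf6 (6.80).

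The 10 members below the filter were mostly tissue-type isoforms. They were Cox4i2, an isoform known from lung, Cox6a2, Cox7a1 and Cox8b, the isoforms of heart and skeletal muscle, Cox6b2, Cox7b2 and Cox8c, known from testis, and Ndufa4l2, Ndufb1 and Ndufb4. Of these 10, Cox8b was above 5 in 1 array, and Cox6a2 had a mean of 3.29, well below 5. Cox4i1, Cox6a1, Cox6b1, Cox7a2 and Cox8a, the widely expressed counterparts, were above 5 in every array.

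Irradiation in C57BL/6 mice was followed by small differences that pointed mostly upward and of which 0 passed the test for a single gene. The difference (irradiated minus sham) was above 0 in 71 of 82 members, against 45.2% of all genes tested, and its median was 0.22 on the log2 scale, against -0.04. By limma with Benjamini-Hochberg adjustment 0 of 82 members were called, against a background of 3.67% of all genes. At an unadjusted p under 0.05 there were 17 higher members (background 10.3%) and 0 lower ones (background 11.0%). In 27 members every irradiated array exceeded every sham array (background 11.4%), and in 1, Uqcrc1, every irradiated array lay below (background 15.1%). The 95% interval of the difference lay within 1 log2 unit of 0 for 79 of the 82.

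**Figure D1:**
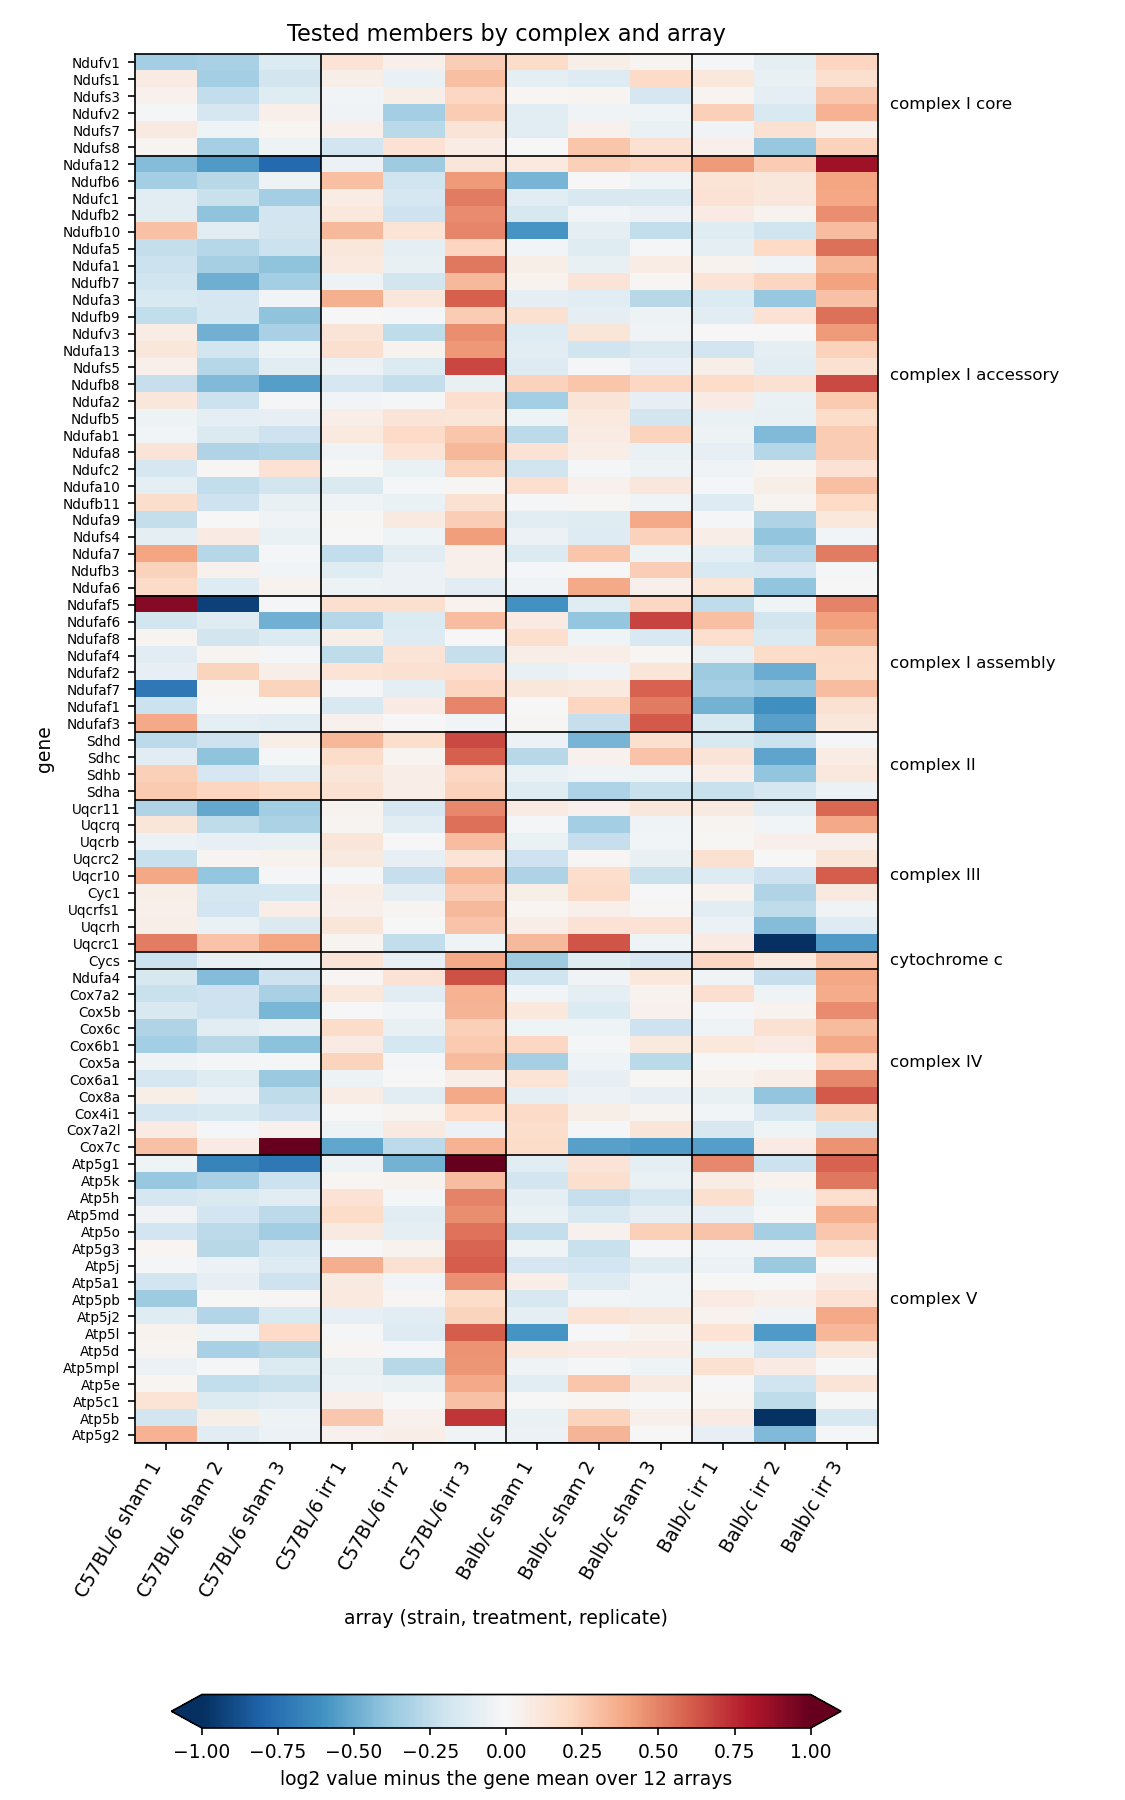
Log2 value of each of the 82 tested members (rows, grouped by complex) minus its mean over 12 arrays, in each array (columns, 3 mice per group), with red above and blue below the gene's mean and the colour ending at 1 log2 unit. Replicate 3 of each irradiated group is the reddest column, and it was the highest array of its own group for 72 members in C57BL/6 and 69 in Balb/c.

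Irradiation in Balb/c mice was followed by differences that were more often above than below 0, in numbers that moved with single arrays. The difference was above 0 in 56 of 82 members, against 44.2% of all genes, with a median of 0.09 against -0.04. Again 0 of 82 members were called by limma, against a background of 6.15%. At an unadjusted p under 0.05 there were 2 higher members (background 9.82%) and 3 lower ones (background 13%). Arrays did not overlap for 12 members that were higher (background 12.8%) and 4 that were lower (background 16.3%), the latter being Cox7a2l, Ndufb3, Uqcrfs1 and Uqcrh. The interval lay within 1 log2 unit of 0 for 77 members. The comparisons within the 2 strains share no arrays.

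**Figure D2:**
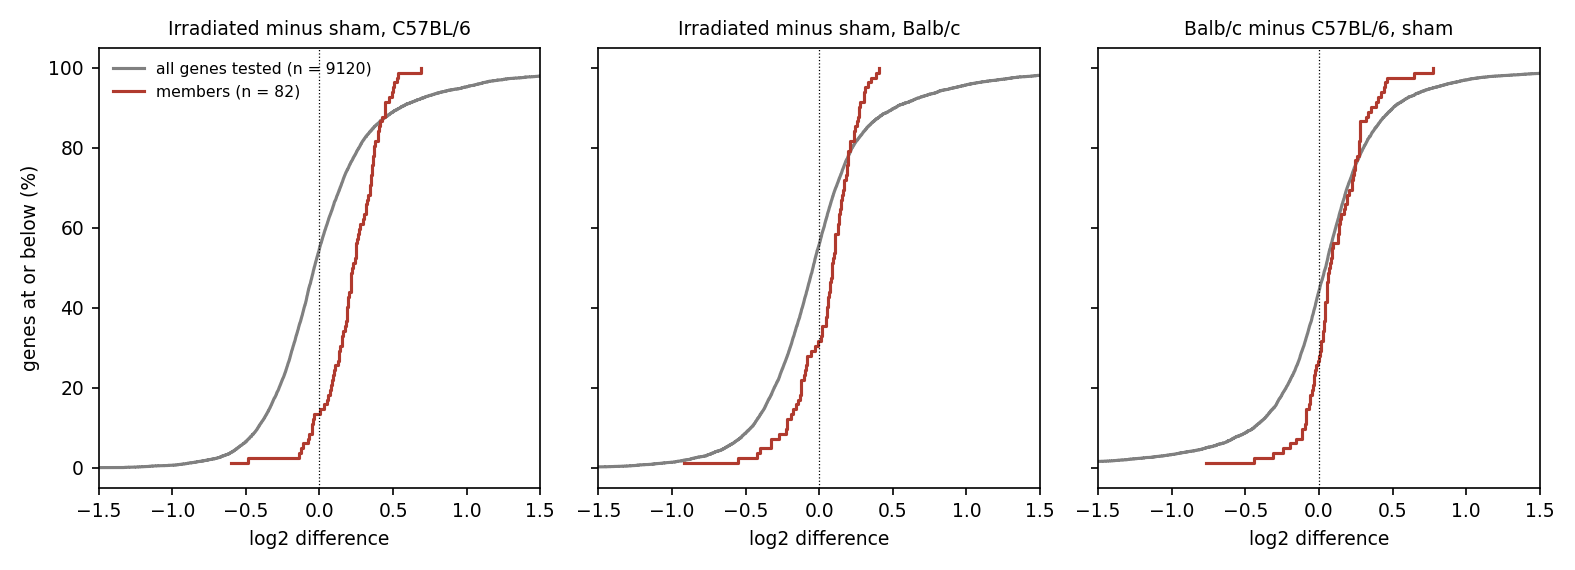
Cumulative share of genes (vertical axis, percent) at or below a given log2 difference (horizontal axis, drawn from -1.5 to 1.5) for the 82 tested members in red and all 9120 tested genes in grey, in 3 comparisons of 3 against 3 arrays. After irradiation the red curve lies right of the grey one at the middle of the scale, at a median of 0.22 against -0.04 in C57BL/6 and 0.09 against -0.04 in Balb/c, while between sham strains the medians were 0.07 and 0.04.

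The core subunits of complex I had a median difference of 0.16 in C57BL/6, with 5 of 6 above 0, and 0.09 in Balb/c, with 4 of 6. Ndufv1, the subunit that carries the flavin where NADH is oxidised, measured 10.72, 10.74 and 10.93 in the C57BL/6 sham arrays and 11.20, 11.12 and 11.31 after irradiation. The groups did not overlap, and the difference of 0.41 ± 0.12 (log2 ± SE) had the smallest adjusted p of all members in this comparison, 0.0779. In Balb/c the same gene read 11.25, 11.13 and 11.09 in sham and 11.05, 10.97 and 11.28 in irradiated arrays, which overlapped, at -0.05 ± 0.12. Ndufs1, the large iron-sulfur subunit, stood at 0.25 ± 0.15 in C57BL/6 (adjusted p = 0.358). In Balb/c the smallest p of this group belonged to Ndufv2, an iron-sulfur partner of Ndufv1, at 0.21 ± 0.17, and to Ndufs8, another iron-sulfur subunit, at -0.17 ± 0.17 (adjusted p = 0.504 and 0.595).

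The accessory subunits of complex I, which surround and stabilise the core, had a median difference of 0.28 in C57BL/6, with 23 of 26 above 0, and 0.10 in Balb/c, with 20 of 26. Ndufa1, a small membrane subunit needed for assembly, read 13.57, 13.45 and 13.38 in C57BL/6 sham and 13.88, 13.70 and 14.31 in C57BL/6 irradiated arrays. Each irradiated array was above each sham array, at 0.50 ± 0.16 (adjusted p = 0.113). In Balb/c its values of 13.84, 13.71 and 13.86 in sham and 13.81, 13.75 and 14.12 in irradiated arrays overlapped, at 0.09 ± 0.16. Ndufc1, another membrane subunit, was the accessory gene with the smallest p in Balb/c, where sham arrays read 10.98, 10.93 and 10.93 and irradiated arrays 11.22, 11.19 and 11.47, all higher, at 0.35 ± 0.16 (adjusted p = 0.230). Ndufa12, described with the average below, stood at 0.50 ± 0.17 in C57BL/6 (adjusted p = 0.133). In Balb/c Ndufb6 followed at 0.39 ± 0.18 (adjusted p = 0.244), and in C57BL/6 it stood at 0.40 ± 0.18.

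The 8 assembly factors, chaperones and enzymes that build complex I without staying in it, had a median difference of 0.11 in C57BL/6, with 6 of 8 above 0, and -0.09 in Balb/c, with 4 of 8. Ndufaf1, a chaperone of the membrane arm, measured 8.31, 8.53 and 8.84 in Balb/c sham and 7.84, 7.70 and 8.47 in irradiated Balb/c arrays. These overlapped through replicate 3, at -0.55 ± 0.23 (adjusted p = 0.172). In C57BL/6 it had 8.10, 8.31 and 8.31 in sham and 8.16, 8.39 and 8.80 in irradiated arrays, at 0.21 ± 0.23. Ndufaf7, a methyltransferase that acts on a core subunit, stood at -0.40 ± 0.26 in Balb/c and 0.19 ± 0.26 in C57BL/6, and Ndufaf6 at 0.05 ± 0.27 and 0.22 ± 0.27.

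Complex II links the tricarboxylic acid cycle to the chain, and its 4 genes had a median difference of 0.29 in C57BL/6 and -0.02 in Balb/c. Sdhd, a membrane anchor, measured 8.86, 8.91 and 9.18 in C57BL/6 sham and 9.45, 9.29 and 9.78 in irradiated arrays, without overlap, at 0.52 ± 0.18 (adjusted p = 0.127). In Balb/c it had 9.06, 8.65 and 9.28 in sham and 8.96, 8.91 and 9.10 in irradiated arrays, at -0.01 ± 0.18. Sdhc, the other anchor, read 8.97, 8.67 and 9.07 in C57BL/6 sham and 9.26, 9.11 and 9.68 in irradiated arrays, also without overlap, at 0.44 ± 0.22 (adjusted p = 0.271), and stood at -0.12 ± 0.22 in Balb/c. Sdhb, the iron-sulfur subunit, differed by 0.14 ± 0.15 in C57BL/6 and -0.03 ± 0.15 in Balb/c. Sdha, the flavoprotein that oxidises succinate, differed by -0.07 ± 0.10 and 0.07 ± 0.10. A second kept probe set of Sdha gave 0.32 ± 0.17 in C57BL/6, so the probe sets of this gene disagreed in sign.

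Complex III had a median difference of 0.17 in C57BL/6, with 8 of 9 above 0, and 0.11 in Balb/c, with 5 of 9. Uqcr11, a small accessory subunit, read 10.12, 9.90 and 10.07 in C57BL/6 sham and 10.45, 10.25 and 10.90 in irradiated arrays, without overlap, at 0.50 ± 0.19 (adjusted p = 0.165). In Balb/c it stood at 0.11 ± 0.19. Uqcrb, which binds near the ubiquinone site, differed by 0.21 ± 0.11 in C57BL/6 and by 0.15 ± 0.11 in Balb/c, and its arrays did not overlap in either strain. Uqcrh, the hinge protein that meets cytochrome c1, lay on the other side in Balb/c, from 11.75, 11.83 and 11.83 in sham to 11.62, 11.24 and 11.55 in irradiated arrays, each lower, at -0.33 ± 0.13 (adjusted p = 0.151). In C57BL/6 its difference was 0.19 ± 0.13. The smallest p of complex III in Balb/c belonged to Uqcrc1 at -0.92 ± 0.30 (adjusted p = 0.0935), whose array values are given with the average. Cyc1, the cytochrome c1 heme protein itself, differed by 0.17 ± 0.14 in C57BL/6 and -0.14 ± 0.14 in Balb/c.

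Complex IV had a median difference of 0.25 in C57BL/6 and 0.16 in Balb/c, with 9 of 11 above 0 in each. Cox6b1, which ties the dimer together on the cytochrome c side, read 13.11, 13.17 and 13.04 in C57BL/6 sham and 13.53, 13.27 and 13.71 in irradiated arrays, without overlap, at 0.40 ± 0.14 (adjusted p = 0.127). In Balb/c it stood at 0.09 ± 0.14. Ndufa4 read 10.07, 9.79 and 10.03 in C57BL/6 sham and 10.24, 10.37 and 10.87 in irradiated arrays, at 0.53 ± 0.20 (adjusted p = 0.152), against 0.08 ± 0.20 in Balb/c. Cox5a, a matrix-side subunit, was the complex IV gene with the smallest p in Balb/c, from 12.80, 13.10 and 12.87 to 13.13, 13.13 and 13.32, each irradiated array higher, at 0.27 ± 0.12 (adjusted p = 0.215). Cox7a2l was below 0 in Balb/c, from 13.13, 12.94 and 13.08 to 12.79, 12.91 and 12.79, each lower, at -0.22 ± 0.10 (adjusted p = 0.221). Cox7c, a small membrane subunit with wide spread between arrays, differed by -0.60 ± 0.34 in C57BL/6 and 0.30 ± 0.34 in Balb/c.

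Complex V had the highest median of the complexes in C57BL/6, 0.34 with 16 of 17 above 0, and 0.07 in Balb/c with 12 of 17. Whether these medians differ was not tested. Atp5j, coupling factor 6 of the stalk, read 12.05, 12.01 and 11.94 in C57BL/6 sham and 12.43, 12.22 and 12.67 in irradiated arrays, without overlap, at 0.45 ± 0.14 (adjusted p = 0.0976). In Balb/c its values of 11.90, 11.88 and 11.95 in sham and 12.01, 11.70 and 12.07 in irradiated arrays overlapped, at 0.02 ± 0.14. Atp5k, the e subunit at the dimer interface, differed by 0.43 ± 0.15 in C57BL/6 (adjusted p = 0.147) and 0.24 ± 0.15 in Balb/c. Atp5h, the d subunit of the stalk, was the complex V gene with the smallest p in Balb/c, from 13.81, 13.67 and 13.72 to 14.06, 13.86 and 14.06, each irradiated array higher, at 0.26 ± 0.13 (adjusted p = 0.277). In C57BL/6 it stood at 0.35 ± 0.13, again without overlap.

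Atp5b, the catalytic beta subunit, had estimates of opposite sign in the strains. It read 9.94, 10.18 and 10.06 in C57BL/6 sham and 10.39, 10.16 and 10.84 in irradiated arrays, at 0.40 ± 0.25, and 10.05, 10.34 and 10.17 in Balb/c sham and 10.20, 9.13 and 9.96 in irradiated arrays, at -0.42 ± 0.25 (adjusted p = 0.379 and 0.359). Groups overlapped in both strains, and the 9.13 of Balb/c irradiated replicate 2, the array with the largest 3' excess, set that group apart. The 3 genes for the same c subunit of the rotor had different estimates. Atp5g1 differed by 0.69 ± 0.37 in C57BL/6 and 0.31 ± 0.37 in Balb/c, Atp5g2 by -0.04 ± 0.16 and -0.27 ± 0.16, and Atp5g3 by 0.35 ± 0.16 and 0.13 ± 0.16, with 0 of them called.

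Replicate 3 of each irradiated group had the highest member levels. The mean deviation of the 82 members from their own means was -0.04, -0.18 and -0.13 in the C57BL/6 sham arrays and 0.04, -0.05 and 0.31 in the irradiated ones. In Balb/c it was -0.06, -0.0031 and 0.02 in sham and 0.0012, -0.15 and 0.24 in irradiated arrays. The other irradiated arrays of both strains lay between -0.15 and 0.04. Replicate 3 was the highest of its own group for 72 members in C57BL/6 (87.8%, against 30.1% of all genes) and 69 in Balb/c (84.1%, against 32.6%).

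**Figure D3:**
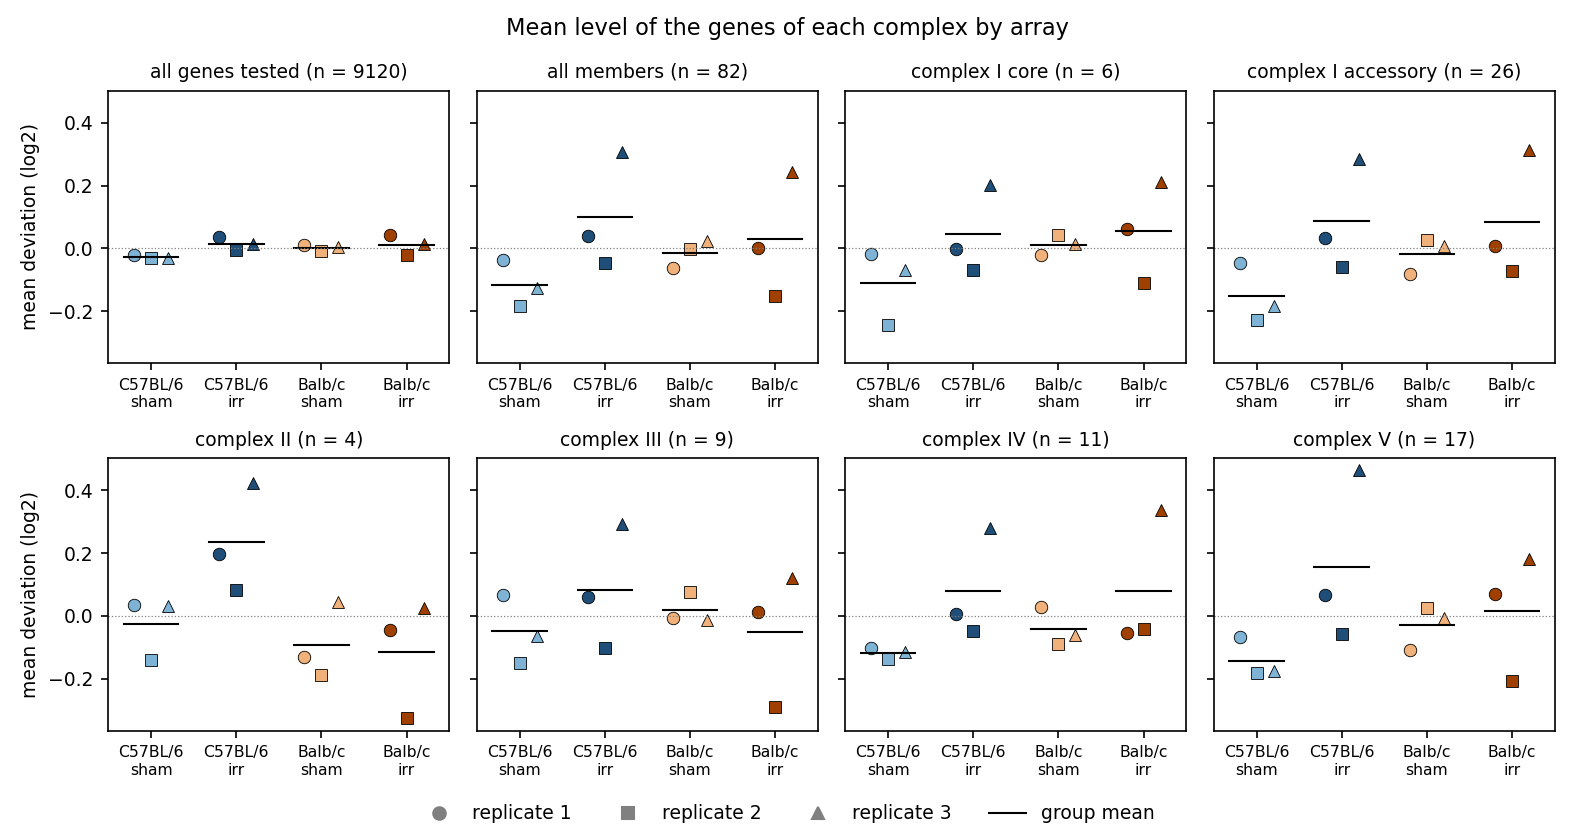
Mean over all tested genes, all members or the genes of a complex of the log2 value minus the gene's mean over 12 arrays (vertical axis), with 1 point per array, shaped by replicate number, and the group mean as a line for each of the 4 groups along the horizontal axis. The C57BL/6 irradiated replicate 3 point of complex V is at 0.46 and that of complex II at 0.42, above the other arrays of these complexes.

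Among the complexes, complex V carried this most in C57BL/6. There 14 of its 17 genes had their highest value of all 12 arrays in irradiated replicate 3, against 47.6% of members and 10.6% of all genes. In Balb/c it was complex IV, where 7 of 11 did so in irradiated replicate 3, against 30.5% of members and 8.62% of all genes. Without C57BL/6 irradiated replicate 3, 65 of 82 members were above 0 in that strain and the median was 0.14. In Balb/c, 65 of 82 were above 0 without irradiated replicate 2, with a median of 0.16. The 3' excess as a covariate also gave 65 in Balb/c, with a median of 0.12. Without Balb/c irradiated replicate 3, 39 of 82 were above 0 and the median was -0.02. By complex, the Balb/c medians without that array were 0.02 for the complex I core, -0.0035 for its accessory subunits, -0.25 for its assembly factors, -0.09 for complex II, -0.09 for complex III, 0.0078 for complex IV and -0.03 for complex V. The complex II median in Balb/c was 0.08 without irradiated replicate 2 and 0.04 without sham replicate 3. In C57BL/6 the median of each complex stayed above 0 without any single array, the lowest being 0.06 for the assembly factors, 0.07 for the complex I core and 0.08 for complex III. The summed astrocyte markers were highest in replicate 3 of each irradiated group. They stood at 15.16, 14.86 and 15.64 in C57BL/6 irradiated replicates 1, 2 and 3 and 15.28, 15.13 and 15.80 in the Balb/c ones. Within each irradiated group this was the order of the members' mean deviation, and so it was in Balb/c sham arrays (14.29, 14.43 and 14.71). In C57BL/6 sham arrays the order was reversed (14.34, 14.68 and 14.46). The part of these markers in the members' shift was not tested.

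Averaging the irradiation difference over both strains gave 3 called members of 82, 2 higher and 1 lower, against a background of 15.9% of all genes called (7.72% higher and 8.15% lower). The members' share was thus below the background. The average was above 0 in 66 of 82 members, against 42.8% of all genes, with a median of 0.14 against -0.05. At an unadjusted p under 0.05, 24 members were higher (background 14.0%) and 1 was lower (background 17.7%).

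Cycs, somatic cytochrome c, the soluble carrier between complexes III and IV that also triggers apoptosis once released, rose after irradiation. It read 12.80, 12.94 and 12.96 in C57BL/6 sham, 13.15, 12.94 and 13.40 in C57BL/6 irradiated, 12.66, 12.90 and 12.85 in Balb/c sham and 13.23, 13.12 and 13.30 in irradiated Balb/c arrays. The Balb/c groups did not overlap, while in C57BL/6 irradiated replicate 2 lay among the sham arrays. The average difference was 0.34 ± 0.09, a 1.26-fold rise (adjusted p = 0.0354). Its 2 other kept probe sets gave 0.11 ± 0.11 and 0.12 ± 0.14, and the mean of all 3 lost the call (0.19, adjusted p = 0.232). The call was kept without C57BL/6 irradiated replicate 2 or Balb/c irradiated replicate 2 and lost without each of the 10 other arrays, with the largest adjusted p, 0.0830, when Balb/c sham replicate 1 was left out.

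Ndufa12, an accessory subunit at the base of the peripheral arm of complex I, rose too. It read 11.72, 11.59 and 11.38 in C57BL/6 sham, 12.10, 11.80 and 12.28 in C57BL/6 irradiated, 12.25, 12.40 and 12.37 in Balb/c sham and 12.59, 12.41 and 13.01 in irradiated Balb/c arrays. Irradiated arrays lay above sham arrays in both strains without overlap, and Balb/c arrays lay above C57BL/6 arrays within each treatment. The average irradiation difference was 0.41 ± 0.12, or 1.33-fold (adjusted p = 0.0433), and its other kept probe sets gave 0.45 ± 0.13 and 0.41 ± 0.12. The call was kept without C57BL/6 sham replicate 1, C57BL/6 irradiated replicate 2 or Balb/c irradiated replicate 2 and lost without each of the 9 others, with the largest adjusted p, 0.0987, when C57BL/6 irradiated replicate 3 was left out. Without both irradiated replicates 3 its difference was 0.27 (adjusted p = 0.156), and with the replicate number as a block it was 0.41 (adjusted p = 0.0515).

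Uqcrc1, a core subunit on the matrix side of complex III related to processing peptidases, fell. It read 8.76, 8.54 and 8.65 in C57BL/6 sham, 8.28, 8.01 and 8.21 in C57BL/6 irradiated, 8.58, 8.88 and 8.21 in Balb/c sham and 8.33, 6.90 and 7.68 in irradiated Balb/c arrays. The C57BL/6 groups did not overlap, and in Balb/c they overlapped at 8.21 and 8.33. The average difference was -0.70 ± 0.21, or 1.63-fold lower (adjusted p = 0.0457). Its partner core subunit Uqcrc2 stood at 0.14 ± 0.08. The lowest value of Uqcrc1 belonged to the array with the largest 3' excess, and with that excess as a covariate the difference was -0.39 (adjusted p = 0.108). The call was kept without Balb/c sham replicate 3 or Balb/c irradiated replicate 1 and lost without each of the 10 other arrays, with the largest adjusted p, 0.103, when Balb/c sham replicate 2 was left out, and without Balb/c irradiated replicate 2 the difference was -0.52 (adjusted p = 0.0515).

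Next to these, Atp5h (0.31 ± 0.09, adjusted p = 0.0504), Ndufc1 (0.36 ± 0.11, adjusted p = 0.0576) and Atp5k (0.33 ± 0.11, adjusted p = 0.0634) came nearest to a call. In complex IV the smallest p belonged to Cox7a2 at 0.28 ± 0.10 and Cox6c at 0.26 ± 0.09 (adjusted p = 0.0819 and 0.0848). The leading genes of the other groups were Ndufv1 (0.18 ± 0.08) and Ndufs3 (0.15 ± 0.09) in the complex I core, Ndufaf1 (-0.17 ± 0.16) and Ndufaf3 (-0.19 ± 0.16) among assembly factors, Sdhd (0.26 ± 0.13) and Sdhc (0.16 ± 0.16) in complex II, and Uqcrb (0.18 ± 0.07) beside Uqcrc1 in complex III. None of these was called.

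**Figure D4:**
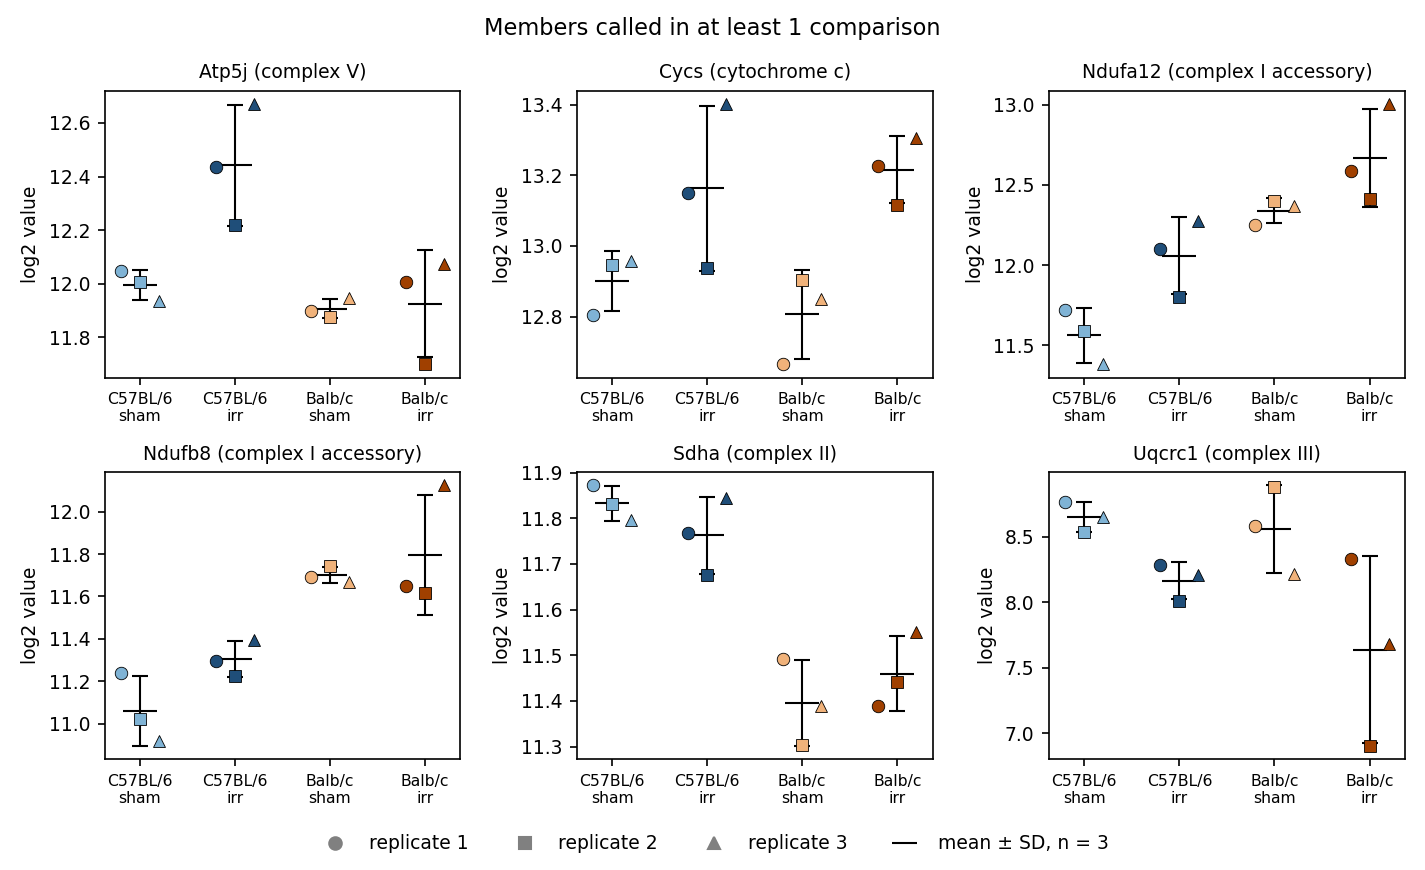
Log2 values (vertical axis) of the 6 members called in at least 1 comparison, with 1 point per array, 3 arrays in each of the 4 groups along the horizontal axis, and the group mean with its SD. Ndufa12 and Ndufb8 sit higher in Balb/c than in C57BL/6 at either treatment, Sdha sits lower, and Uqcrc1 reaches its lowest value of 6.90 in a Balb/c irradiated array.

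Whether irradiation acted alike in both strains was tested as the interaction (the Balb/c difference minus the C57BL/6 difference). By limma 0 of 82 members were called, against a background of 0.0768%, and at an unadjusted p under 0.05 there were 0 higher (background 3.62%) and 5 lower (background 4.44%). The interaction was above 0 in 16 of 82 members, against 47.3% of all genes, with a median of -0.17 against -0.02. Ndufv1 at -0.47 ± 0.16 and Uqcrh at -0.52 ± 0.18 had the smallest p (adjusted p = 0.558 for each). Ndufaf1 stood at -0.77 ± 0.32, Sdhd at -0.53 ± 0.25 and Atp5b at -0.83 ± 0.36 (adjusted p = 0.609), and Cox7c on the other side at 0.90 ± 0.48 (adjusted p = 0.656). Also leading their groups by p were Ndufs8 (-0.30 ± 0.24), Ndufa1 (-0.41 ± 0.23), Ndufab1 (-0.41 ± 0.25), Ndufaf7 (-0.59 ± 0.37), Sdhc (-0.57 ± 0.31), Uqcrfs1 (-0.32 ± 0.17), Cox4i1 (-0.34 ± 0.17) and Atp5j (-0.43 ± 0.19), and Cycs stood at 0.15 ± 0.19. The 95% interval lay within 1 log2 unit of 0 for 70 members. The median standard error of the interaction over the 82 members was 0.23, so differences of that size between strains were not detectable with these arrays. The median moved to 0.0079 when Balb/c irradiated replicate 2 was left out together with C57BL/6 irradiated replicate 3, and was -0.06 without the latter alone.

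Between sham mice of the 2 strains 3 of 82 members were called, 2 higher and 1 lower in Balb/c, against a background of 10.5% (5.22% higher and 5.24% lower). The difference (Balb/c minus C57BL/6) was above 0 in 59 members, against 55.8% of all genes, with a median of 0.07 against 0.04. Arrays did not overlap for 18 higher members (background 16.3%) and 2 lower ones, Cox5a and Sdha (background 12.3%). By complex the medians were 0.10 for the complex I core, 0.09 for its accessory subunits and assembly factors alike, -0.01 for complex II, 0.02 for complex III, 0.22 for complex IV and 0.06 for complex V. The complex IV median was 0.0050 when members below the filter were kept in. The median of complex II turned positive when Balb/c sham replicate 2 (0.07) or C57BL/6 sham replicate 1 or 3 (0.02 and 0.01) was left out, and that of complex III was -0.03 when the C57BL/6 sham array numbered 2 was. This comparison shares its sham arrays with the irradiation differences above.

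Ndufa12 was higher in Balb/c sham than in C57BL/6 sham arrays by 0.78 ± 0.17, or 1.71-fold (adjusted p = 0.0142), from the array values given above. Its other kept probe sets gave 0.85 ± 0.17 and 0.17 ± 0.19, the latter with overlapping arrays. The call was lost without C57BL/6 sham replicate 3 (adjusted p = 0.0574) or Balb/c sham replicate 2 (adjusted p = 0.0528). Ndufb8, an accessory subunit of the membrane arm, read 11.24, 11.02 and 10.92 in C57BL/6 sham and 11.69, 11.74 and 11.67 in Balb/c sham arrays. These did not overlap, and it was higher in Balb/c by 0.64 ± 0.15, or 1.56-fold (adjusted p = 0.0157). In irradiated arrays it read 11.30, 11.23 and 11.39 in C57BL/6 and 11.65, 11.62 and 12.12 in Balb/c, again without overlap, at 0.49 ± 0.15 (adjusted p = 0.0643). Its sham call was lost without C57BL/6 sham replicate 2 (adjusted p = 0.0512), C57BL/6 sham replicate 3 (0.0626), Balb/c sham replicate 1 (0.0509) or Balb/c sham replicate 2 (0.0562).

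Sdha was lower in Balb/c, at 11.87, 11.83 and 11.80 in C57BL/6 sham and 11.49, 11.30 and 11.39 in Balb/c sham arrays. The groups did not overlap, and the difference was -0.44 ± 0.10, or 1.36-fold lower (adjusted p = 0.0155). Its second kept probe set gave -0.14 ± 0.17, and the mean of both lost the call (-0.29, adjusted p = 0.169), as did the sham groups fitted alone (adjusted p = 0.0587). So did leaving out Balb/c sham replicate 2 (adjusted p = 0.0648) or replicate 3 (0.0510). Sdhb, Sdhc and Sdhd, its partners in complex II, stood at -0.04 ± 0.15, 0.19 ± 0.22 and 0.02 ± 0.18. Near a call were Cox6b1 at 0.44 ± 0.14 (adjusted p = 0.0665) and Ndufv1 at 0.36 ± 0.12 (adjusted p = 0.0857), both without overlap, and Uqcr11 followed at 0.46 ± 0.19 (adjusted p = 0.177). The remaining leaders by p were Ndufs8 (0.26 ± 0.17), Ndufaf6 (0.39 ± 0.27), Ndufaf7 (0.42 ± 0.26), Uqcrh (0.17 ± 0.13), Cox4i1 (0.27 ± 0.12), Atp5d (0.27 ± 0.15) and Atp5k (0.28 ± 0.15), none of them called, and Cycs stood at -0.10 ± 0.13.

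Between irradiated mice of the 2 strains 1 of 82 members was called, Atp5j, lower in Balb/c, against a background of 8.97% (4.59% lower). The difference was above 0 in 32 members, against 53.1% of all genes, with a median of -0.07 against 0.02. This direction turned without C57BL/6 irradiated replicate 3, where 46 were above 0 with a median of 0.04, and without Balb/c irradiated replicate 2, where 44 were above 0 with a median of 0.02, and with the 3' excess as a covariate the median was -0.0033. Same-numbered arrays of these 2 groups deviated together, and with the replicate number as a block 2 members were called, Atp5j (-0.52, adjusted p = 0.0364) and Sdhd, both lower. Arrays did not overlap for 2 higher members, Ndufa12 and Ndufb8 (background 15.1%), and 5 lower ones, Atp5j, Sdha, Sdhd, Uqcrfs1 and Uqcrh (background 12.3%). Atp5j read 12.43, 12.22 and 12.67 in C57BL/6 and 12.01, 11.70 and 12.07 in Balb/c irradiated arrays, at -0.52 ± 0.14, or 1.43-fold lower (adjusted p = 0.0389). In sham arrays its strain difference was -0.09 ± 0.14. The call was kept without C57BL/6 sham replicate 1, C57BL/6 irradiated replicate 2 or Balb/c irradiated replicate 3 and lost without each of the 9 other arrays, with the largest adjusted p, 0.133, when Balb/c irradiated replicate 2 was left out, and with the 3' excess as a covariate (-0.37, adjusted p = 0.426). It was also lost without a filter on dim probe sets (adjusted p = 0.0685), when Sdha was the member called, and with the compared groups alone (adjusted p = 0.149). Ndufa12 stood at 0.61 ± 0.17 (adjusted p = 0.0523) and Sdha at -0.30 ± 0.10 (adjusted p = 0.0900). All 4 complex II genes were below 0, with a median of -0.34 and Sdhd at -0.52 ± 0.18 (adjusted p = 0.107). Atp5b stood at -0.70 ± 0.25 and Uqcrh at -0.34 ± 0.13 (adjusted p = 0.125 and 0.128). The other leaders by p were Uqcrfs1 (-0.26 ± 0.12), Ndufaf1 (-0.45 ± 0.23), Ndufaf2 (-0.37 ± 0.16), Ndufv1 (-0.11 ± 0.12), Ndufv2 (0.19 ± 0.17), Cox6a1 (0.19 ± 0.13) and Cox7a2l (-0.12 ± 0.10), none of them called, and Cycs stood at 0.05 ± 0.13.

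Probe sets of a gene did not always point the same way. Of the 82 tested members 43 had several kept probe sets, and these shared a sign for 35 of them in C57BL/6 irradiation, 29 in Balb/c irradiation, 31 between sham strains and 24 between irradiated strains. Ndufb8, Uqcrc1 and Atp5j had 1 kept probe set each. Whether the probes match the sequences of both strains alike was not tested, so the strain differences above are differences in probe set signal. The probe sets read for Ndufa12, Sdha, Cycs, Ndufb8 and Uqcrc1 are of kinds whose probes can match more than 1 transcript.

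The other genes of the pathway did not all follow the members. Enzymes of the tricarboxylic acid cycle, which feed electrons into the chain, had a median irradiation difference of 0.24 in C57BL/6, with 17 of 19 above 0, and 0.11 in Balb/c, with 13 of 19. These stood against 45.2% and 44.2% of all genes above 0. Called in the average was 1 of 19, below the background of 15.9%, namely Dlat, the acetyltransferase of pyruvate dehydrogenase, at 0.69 ± 0.17 (adjusted p = 0.0217), and 0 fell. In C57BL/6 the smallest p of this list belonged to Dlst, a subunit of 2-oxoglutarate dehydrogenase, at 0.37 ± 0.11 (adjusted p = 0.0893). In Balb/c another subunit of that enzyme, Ogdh, stood at -0.63 ± 0.22 (adjusted p = 0.115). In Balb/c irradiated replicate 3 the cycle enzymes had a mean deviation of 0.02, against 0.24 for the members, and in C57BL/6 irradiated replicate 3 they stood at 0.30 against 0.31.

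Regulators of mitochondrial biogenesis leaned the other way. Of 16 tested genes 2 were above 0 in C57BL/6 (45.2% of all genes) and 4 in Balb/c (44.2% of all genes), with medians of -0.18 and -0.16. In the average 4 of 16 fell (background 8.15%) and 0 rose (background 7.72%). They were Twnk, the helicase of mitochondrial DNA (-0.58 ± 0.12, adjusted p = 0.00880), Pprc1, a coactivator of the PGC-1 family (-0.39 ± 0.10, adjusted p = 0.0298), Tfb1m, a methyltransferase of the mitochondrial ribosome (-0.56 ± 0.16, adjusted p = 0.0383), and Polg2, the accessory subunit of the mitochondrial DNA polymerase (-0.51 ± 0.15, adjusted p = 0.0390). Twnk also fell in Balb/c alone, by 0.71 on the log2 scale (SE 0.16, adjusted p = 0.0313). Ppargc1a, the coactivator PGC-1 alpha, stood at 2.25 ± 0.67 in C57BL/6 without a call (adjusted p = 0.0910).

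Assembly factors outside the Nduf names had medians below 0 in both strains, as did all genes tested. Of the 6 tested for complex I, 0 were above 0 in C57BL/6 and 1 in Balb/c, with medians of -0.20 and -0.13, against -0.04 for all genes in each. The 29 for complexes II to V had medians of -0.01 and -0.04, against the same -0.04 for all genes in each strain. Above 0 were 14 in C57BL/6 (45.2% of all genes) and 10 in Balb/c (44.2% of all genes). By limma 0 of them were called in either strain at an adjusted p under 0.05 (background 3.67% in C57BL/6 and 6.15% in Balb/c). At an unadjusted p under 0.05, 1 of the 29 was higher (background 10.3%) and 2 were lower (background 11.0%) in C57BL/6. In Balb/c 0 were higher (background 9.82%) and 1 was lower (background 13%). Of the 6 for complex I, 0 were higher and 1 was lower in C57BL/6, and 0 were higher and 0 lower in Balb/c, against the same backgrounds. Sdhaf1, which helps insert the iron-sulfur clusters of complex II, stood at -0.36 ± 0.10 in C57BL/6 (adjusted p = 0.0813). Between sham strains 3 of the 29 were called lower in Balb/c (background 5.24%), namely Cox20 at -0.63 ± 0.15 (adjusted p = 0.0189), Sdhaf1 at -0.38 ± 0.10 (adjusted p = 0.0398) and Cox18 at -0.44 ± 0.12 (adjusted p = 0.0449). The 25 import and outer membrane genes had medians of 0.11 and 0.01 after irradiation. Of these, 3 were called higher in Balb/c sham arrays (background 5.22%), led by Hspe1, the mitochondrial co-chaperonin, at 0.91 ± 0.09 (adjusted p = 9.46e-05), with Vdac2, an outer membrane channel, at 0.45 ± 0.09 (adjusted p = 0.00860) and Timm10, an intermembrane space chaperone, at 0.72 ± 0.15 (adjusted p = 0.0101). Of the 13 subunits that the mitochondrial genome encodes, 0 were matched on the array by name, so they were not analysed here.

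Promoters of the members are shown because many nuclear genes of the chain are known to be served by the same transcription factors, NRF1, the ETS factor GABP and YY1, with CREB at some. RefSeq promoters (build GRCm38.p6, 250 bases before to 50 after each start) were matched for 75 of the 92 members, with 80 promoters. Each motif was searched on both strands, and no matches of different motifs overlapped. The NRF1-type motif, whose letters stand in capitals in the Sdha and Uqcrc1 sequences, was found in 22.5% of member promoters, against 4.60% of all 32851 promoters and 10.5% of those of tested genes. CCGGAAG, the ETS-type motif, was found in 23.8% against 8.86% and 18%, AAGATGGC, the YY1-type motif, in 12.5% against 2.75% and 4.55%, and TGACGTCA, the CRE-type motif, in 5% against 1.79% and 3.12%. A match is a stretch of letters and not a measured site. For Sdha, Cycs and Atp5j, the called members with a match there, the 200 bases before the start are printed 5' to 3' on the gene's strand with matches in capitals. Sdha (chr13:74350241-74350440, minus strand) has 3 NRF1-type matches, Cycs (chr6:50566570-50566769, minus strand) has 1 CRE-type match, and Atp5j (chr16:84834977-84835176, minus strand, the downstream of 2 listed starts) has 1 YY1-type match followed by 1 ETS-type match.
Sdha: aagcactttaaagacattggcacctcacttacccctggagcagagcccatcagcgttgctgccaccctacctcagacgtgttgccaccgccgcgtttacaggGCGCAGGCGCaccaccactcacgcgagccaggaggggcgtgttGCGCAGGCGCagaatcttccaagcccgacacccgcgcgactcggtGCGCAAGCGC
Cycs: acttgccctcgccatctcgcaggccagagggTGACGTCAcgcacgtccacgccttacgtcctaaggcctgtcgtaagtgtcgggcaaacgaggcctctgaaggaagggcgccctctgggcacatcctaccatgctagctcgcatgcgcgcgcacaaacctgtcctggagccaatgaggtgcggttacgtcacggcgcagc
Atp5j: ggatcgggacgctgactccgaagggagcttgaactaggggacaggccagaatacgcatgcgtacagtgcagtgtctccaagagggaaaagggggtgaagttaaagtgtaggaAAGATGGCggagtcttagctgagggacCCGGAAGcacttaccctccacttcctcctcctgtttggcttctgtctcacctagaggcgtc
Uqcrc1 has its 2 NRF1-type matches just after the start, shown with 8 bases on each side (chr9:108936645-108936670 and chr9:108936670-108936695, plus strand).
Uqcrc1 match 1: tccttacaGCGCTTGCGCctcagact
Uqcrc1 match 2: tccgctctGCGCATGCGCagcgcggc
Ndufa12 holds none of these letters in the searched window. Ndufb8 has none in the 200 bases before its start and 1 YY1-type match after it, from base 39 counted from 1 at the start.

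The 16 tested members with an NRF1-type match had a median irradiation difference of 0.25 in C57BL/6 and 0.06 in Balb/c, and the 53 without one 0.21 and 0.09. They include Sdha, lower in Balb/c, and Uqcrc1, which fell after irradiation, as well as Atp5h and Sdhd with differences above 0 in C57BL/6. For the ETS-type match the medians were 0.24 and 0.11 in the 19 members that hold it and 0.21 and 0.08 in the 50 that do not. These are descriptions without a test.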

How the data were processed

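RNA of 12 mice was measured on 12 Affymetrix arrays, 1 mouse each, after 2 rounds of linear amplification, per the labels' protocols. The authors deposited log2 values; per the submitters' processing notes these come from GCRMA, with no version given. They range from 2.23 to 16.2 and were not renormalised here. Scanner files were not used here, and precision is limited by the number of arrays. Of 45101 probe sets, 34945 had 1 gene symbol, 932 several and 9160 none; 64 were controls. Probe sets with several symbols named no gene, which left out 10 that list a member.

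Log2 values were fitted with limma 3.58.1 (R 4.3.3; lmFit, eBayes), 1 mean per group over all arrays with 8 residual degrees of freedom. P-values were adjusted by Benjamini-Hochberg over 9120 genes per contrast, with calls at an adjusted p under 0.05. The fit was tested on simulated data. The average and the strain comparisons share arrays with the other contrasts. Named were called members, the 2 of smallest p per complex and contrast, all of complex II, Cyc1, Cycs, isoforms, members at the filter's edge and up to 3 genes per pathway list. Members and lists were chosen with earlier results of these data known. Labels give each group replicates 1, 2 and 3 and do not say what a number marks. Deviations of same-numbered arrays correlated above 0.1 in all 3 pairs only between the irradiated groups of the 2 strains (0.217, 0.447 and 0.323), so the block fit stands beside that comparison; other alternatives are given in the closing section. One of them leaves out replicate 3 of irradiated C57BL/6 together with replicate 2 of irradiated Balb/c, chosen from earlier results; their mean correlation with the arrays of their own group was 0.966 and 0.975, in a range of 0.966 to 0.986, and that of C57BL/6 irradiated replicate 2 was 0.968. No formal outlier test was run, since groups hold 3 arrays.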

Additional observations from a re-analysis of the deposited data

How the results depend on the processing

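No member that was called in the main analysis changed sign under any alternative run, and 0 members were called for the interaction under any. The other counts of called members moved with small choices, and the cause was not tested. For irradiation averaged over strains (3 called) the count was 0 without a filter, 5 with a filter at 7, 11 with a trended robust eBayes, 0 with the 3' excess as a covariate, 0 without Balb/c irradiated replicate 2 and C57BL/6 irradiated replicate 3 together, and 0 without both irradiated replicates 3, an alternative chosen after seeing the data; leaving out single arrays gave 0 to 7. For irradiation in C57BL/6 (0 called) the trended robust eBayes gave 1 (Ndufv1) and single arrays gave 0. In Balb/c (0 called) trended robust eBayes and array weights each gave 1 (Cycs), and single arrays 0 to 1. Between sham strains (3 called) array weights gave 5, leaving out both irradiated replicates 3 gave 5 and single arrays 0 to 4. Between irradiated strains (1 called) the count was 2 with a filter at 7, 2 with arrays centred, 4 with trended robust eBayes, 3 with array weights, 0 with the covariate, 0 with the compared groups alone, 0 without both irradiated replicates 3, and 0 to 3 without single arrays; it was 1 without a filter (Sdha) and 1 without that pair of arrays (Ndufa12), and neither kept Atp5j.

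Medians over the members kept their sign, except for Balb/c irradiation, -0.02 without irradiated replicate 3 (0.09 in the main analysis), the interaction, 0.0079 without that pair of arrays, and irradiated strains, 0.11 without that pair, 0.04 without C57BL/6 irradiated replicate 3 and 0.02 without Balb/c irradiated replicate 2 (-0.07 in the main analysis). Leaving out single arrays gave 0.14 to 0.29 in C57BL/6, -0.02 to 0.16 in Balb/c, 0.09 to 0.20 in the average, -0.27 to -0.06 in the interaction, 0.06 to 0.14 between sham strains and -0.16 to 0.04 between irradiated strains.

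The labels do not say that replicate numbers pair the mice. Of 18 same-numbered pairs of arrays 9 had deviations that correlated above 0.1 (range -0.05 to 0.45), and 10 correlated best with their own number. With the replicate number as a block the count was 1 in C57BL/6 (Sdhd), 0 in Balb/c, 3 in the average (Ndufa12 lost, Atp5h added), 3 between sham strains and 2 between irradiated strains (Sdhd added).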

Other observations

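Among the 10 members below the filter, 3 isoforms had their highest value in C57BL/6 irradiated replicate 3. The same held for 47.6% of tested members and 10.6% of all tested genes. Cox8b, a muscle isoform, read 5.97 there, 3.38 in Balb/c irradiated replicate 3 and 2.23 to 2.69 in the 10 other arrays. Cox7a1, another muscle isoform, read 4.51 and 3.07 in the same arrays and 2.23 to 2.36 in the others. Cox6b2, known from testis, read 3.85 in C57BL/6 irradiated replicate 3 and 2.53 to 3.18 in the 11 other arrays. The lowest deposited value was 2.23, and Cox7a1 and Cox6b2 stayed below 5 in every array. None of these genes was tested.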
